A study of Homo sapiens with 20 samples.

Results

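PEG10 and 9 further imprinted genes (SGCE, PEG3, MEST, H19, IGF2, DLK1, MEG3, CDKN1C and SNRPN) were followed through 14 RNA-seq libraries of human embryonic kidney cells, 10 genes of the 57087 to which estimated counts were assigned. The list was chosen from measured values, for the rise of PEG10 in shDicer and shAgo2. The other 9 genes were added as well-known imprinted genes, with earlier results of these data known. In mRNA-seq, 3 libraries of wild type HEK293T cells (wt) were compared with 3 of HEK293 2B cells that carry an shRNA against Dicer (shDicer), and both lines received 3 µg/ml doxycycline for 7 days. In chrRNA-seq, which reads RNA bound to chromatin, 2 wt libraries were set beside 2 shDicer, 2 shAgo2 and 2 DroshaKD libraries. All 8 were labelled HEK293. The shDicer and shAgo2 lines hold a stably integrated inducible shRNA cassette and were induced with 3 µg/ml doxycycline for 72 h, while DroshaKD cells were transfected with an shRNA plasmid. The study's methods list a HEK293T-REx clone whose cassette holds tagged Dicer beside the Dicer shRNA, and further HEK293T-REx lines with inducible shRNA, and which of them gave the shDicer libraries is not given in the sources used here. Whether the chrRNA-seq wt and DroshaKD cells received doxycycline is not given in the sources used here. An integrated line differs from wt in its history as well as in its knockdown, so the line and the knockdown cannot be told apart in shDicer and shAgo2.

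Imprinted genes are read mainly from 1 parental copy. The parental copies differ in DNA methylation at a control region, a difference that is set in the germ line. Many of them govern growth of the fetus and the placenta, and they lie in clusters where neighbours often share a control region. Dicer cuts microRNA precursors in the cytoplasm, Ago2 carries the mature small RNA to its targets, and Drosha makes the first cut in the nucleus. Reads were counted per gene here, so nothing below separates the parental copies.

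Between 10216430 and 17215978 estimated counts were assigned to transcripts in an mRNA-seq library, and between 17484067 and 21553760 in a chrRNA-seq library. DICER1 was 246.8 ± 13.5 CPM (counts scaled to library size, SD, n = 3) in mRNA-seq wt and 87.8 ± 6.92 CPM in shDicer, a log2 fold change of -1.49 ± 0.08 (SE, adjusted p = 1.28e-07). Here and below, tests were edgeR's quasi-likelihood test with Benjamini-Hochberg adjustment over all genes, and a gene passed at an adjusted p under 0.001 in mRNA-seq, 0.005 in shDicer and shAgo2 on chromatin and 0.05 in DroshaKD. Nothing in the sources used here says that replicates were separate cultures, so the spread may be technical. On chromatin, DICER1 was 122 CPM in wt and 108 CPM in the libraries labelled shDicer, and this did not pass the test (log2 fold change -0.18 ± 0.09, adjusted p = 0.166). In shAgo2, DICER1 was higher than in wt, at 209 CPM (log2 fold change 0.78 ± 0.09, adjusted p = 3.59e-05). AGO2 was lower in shAgo2 (161 against 247 CPM, log2 fold change -0.62 ± 0.08, adjusted p = 9.29e-05). DROSHA was not lower in the libraries labelled DroshaKD (157 against 150 CPM in wt, log2 fold change 0.07 ± 0.08, adjusted p = 0.697). The chrRNA-seq libraries of shDicer and DroshaKD are therefore called by their labels throughout, and a level on chromatin is no direct check of a knockdown that acts on messenger RNA. The study itself measured steady-state Drosha, Dicer and Ago2 transcripts by qRT-PCR in the samples behind its chrRNA-seq. It also reports western blots of the Dicer, Drosha and Ago2 knockdowns. Of 7 markers of HEK293 cells, 6 in mRNA-seq and 7 in chrRNA-seq had more than 3 counts in every library of each group. Their summed level was 460 to 1284 CPM in mRNA-seq and 347 to 684 CPM in chrRNA-seq. These markers also moved with the groups: 5 of 6 tested passed the threshold in mRNA-seq, 7 of 7 in chrRNA-seq shDicer, 5 of 7 in shAgo2 and 3 of 7 in DroshaKD. Of all genes tested, 15.6% were raised and 14.2% lowered in mRNA-seq, and on chromatin 11.0% and 10.5% in shDicer. These shares were 12.5% and 12.1% in shAgo2, and 1.19% and 2.18% in DroshaKD. NEFL and KRT8 were higher in the first 3 comparisons, KRT18 in mRNA-seq and chrRNA-seq shDicer, and PAX2 in chrRNA-seq shDicer. NEFM and INA were lower in all 4, and VIM in each of those on chromatin. Markers of hepatocytes summed to at most 1.11 CPM in any library. Fibroblast markers summed to at most 49.6 CPM, and on chromatin COL1A1, a collagen gene among them, was higher in shAgo2. The part of these shifts in the results below was not tested. In such bulk samples, fewer cells of a kind and less RNA per cell cannot be told apart.

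PEG10 (ENSG00000242265, chromosome 7, 94656325 to 94669695, plus strand, GRCh38) encodes Gag-like and Pol-like proteins of a domesticated retrotransposon and is read from the paternal copy. In mRNA-seq it had 4, 8 and 12 estimated counts in the 3 wt libraries and 2662, 2789 and 3995 in the 3 shDicer libraries. This corresponds to 0.324, 0.712 and 1.23 CPM against 209, 211 and 238 CPM. On chromatin, wt had 5 and 12 counts, shDicer 1979 and 2709, and shAgo2 3227 and 3117. The libraries labelled DroshaKD had 8 and 6 counts and overlapped wt. Every shDicer and shAgo2 library therefore lay more than 100 CPM above every wt library. The fitted log2 fold changes were 8.23 ± 0.19 (SE) in mRNA-seq shDicer, 7.88 ± 0.25 in chrRNA-seq shDicer and 8.29 ± 0.25 in shAgo2. With counts scaled from TPM and transcript length they were 6.99, 6.93 and 7.20. These 3 values chose the list, so no test is attached to them, and PEG10 is left out of every count of raised members in these 3 comparisons. The few counts in wt set the size of the fold: without the first wt library the mRNA-seq value was 7.85 and without the third it was 8.72. On chromatin, shDicer ranged from 7.34 to 8.67 and shAgo2 from 7.74 to 9.08 when 1 or the other wt library was left out. The comparisons of shDicer and shAgo2 with wt on chromatin share the 2 wt libraries.

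**Figure D1:**
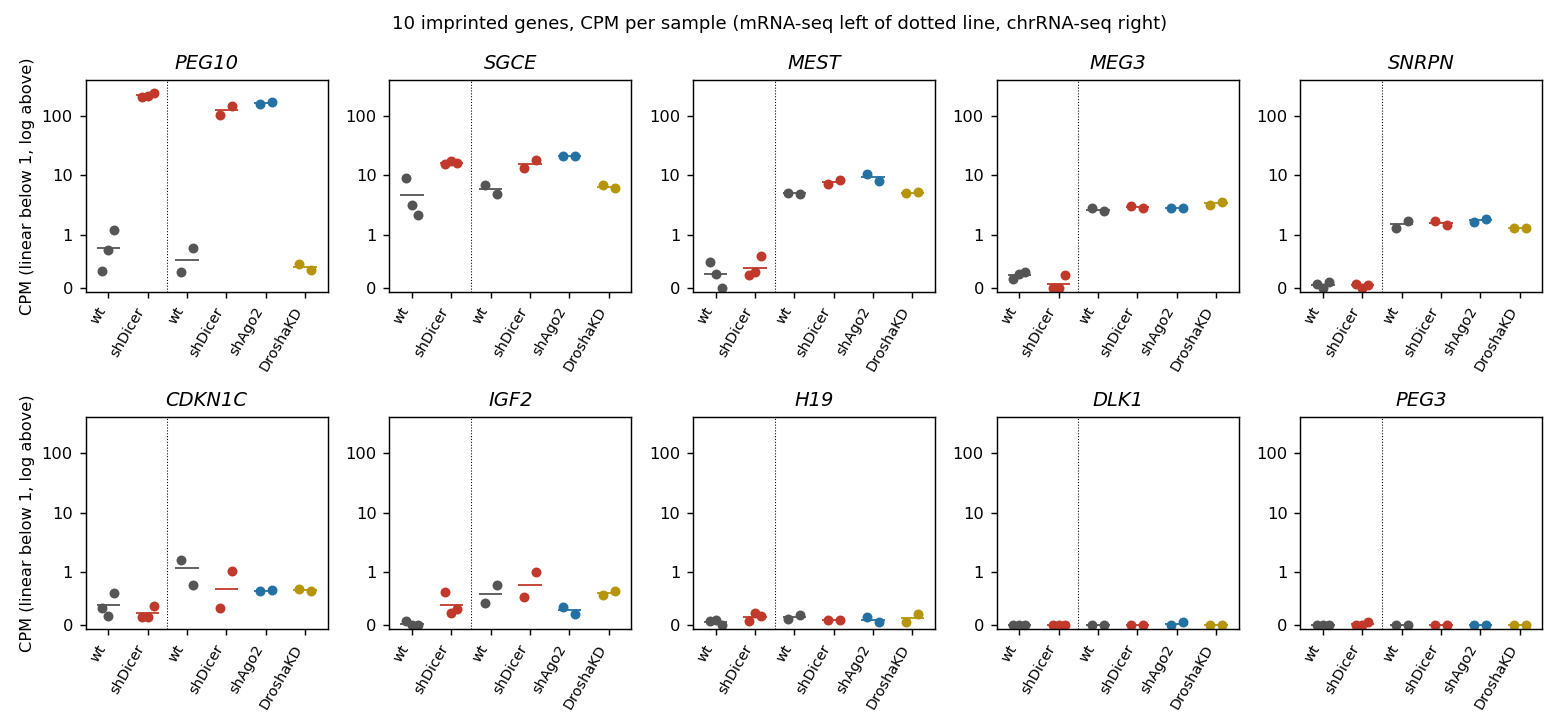
CPM of each of the 10 genes in every library, with mRNA-seq to the left of the dotted line and chrRNA-seq to the right. Points are libraries and lines are group means, and the axis is linear below 1 CPM and logarithmic above. PEG10 stands above 100 CPM in all 7 shDicer and shAgo2 libraries and at or below 1.23 CPM elsewhere.

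Counts were divided among the annotated PEG10 transcripts differently in the 2 assays. In mRNA-seq shDicer, PEG10-208 took 72.2% of the estimated PEG10 counts (63.9 to 81.2% in the 3 libraries) and PEG10-202 took 23.5% (14.8 to 31.4%). On chromatin, PEG10-202 took 82.0% in shDicer and 84.9% in shAgo2, and PEG10-203 took 15.4 and 13.3%. PEG10-208 had practically no counts there. Both transcripts have 2 exons, and they differ in the start of the first exon, at 94656325 in PEG10-202 and at 94656546 in PEG10-208. PEG10 transcripts share no 31-base stretch with another gene's transcripts read in the same sense. The bases by which PEG10-202 starts earlier lie within SGCE, which is annotated to 94656572 on the opposite strand. The division between PEG10-202 and PEG10-208 rests mainly on that stretch, and the part of SGCE in it was not tested. No spread is given for wt, where so few counts cannot be divided among transcripts.

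**Figure D2:**
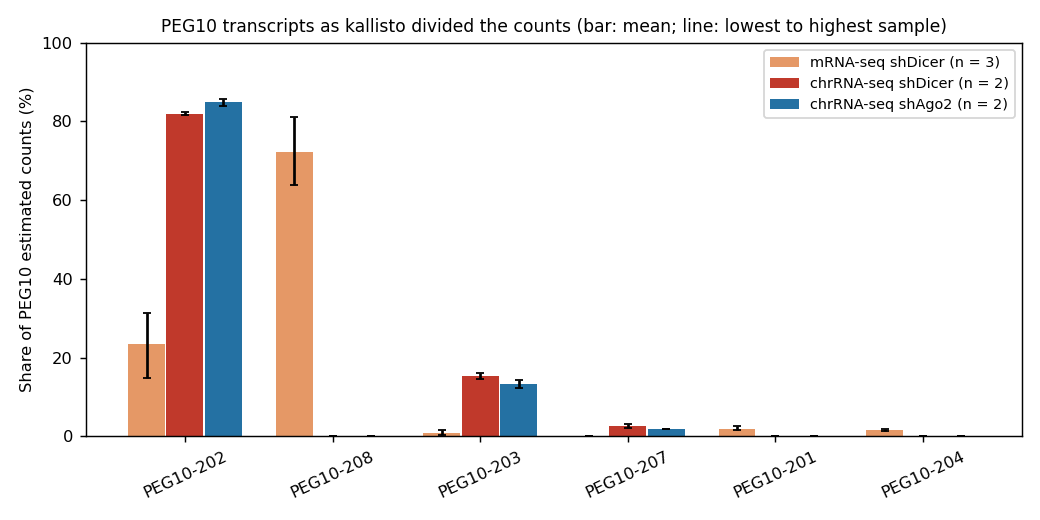
Share of PEG10 estimated counts given to each transcript by kallisto in the 3 groups with high PEG10, as the mean with the range over libraries. PEG10-208 leads in mRNA-seq at 72.2%, and PEG10-202 leads on chromatin at 82.0 and 84.9%.

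SGCE (chromosome 7, 94524204 to 94656572, minus strand) encodes epsilon-sarcoglycan, a membrane protein of the dystrophin-associated complex. It is read head to head with PEG10, and the annotated genes overlap by 248 bases on opposite strands. The study's methods give stranded counting for chrRNA-seq, which keeps the genes apart, and give no strand setting for the mRNA-seq counts. On chromatin SGCE was 6.76 and 4.80 CPM in wt, 13.2 and 18.2 CPM in shDicer, and 21.1 and 20.7 CPM in shAgo2. All 4 knockdown libraries were above both wt libraries. SGCE rose by 1.43 ± 0.18 on the log2 scale in shDicer (adjusted p = 7.72e-05) and by 1.85 ± 0.18 in shAgo2 (adjusted p = 7.09e-06). In mRNA-seq it was 8.84, 3.11 and 2.15 CPM in wt and 15.3, 17.5 and 16.3 CPM in shDicer. The groups did not overlap, but the difference missed the threshold of 0.001 used for mRNA-seq (log2 fold change 1.76 ± 0.36, adjusted p = 0.0016). The first wt library stood apart from the other two, and without it the difference passed (log2 fold change 2.64, adjusted p = 2.65e-05). Without any other single library it stayed between 1.43 and 1.80, with adjusted p between 0.00326 and 0.00718.

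MEST (chromosome 7, 130486171 to 130506465, plus strand), a paternally expressed gene of the alpha/beta hydrolase fold that marks mesoderm, was seen on chromatin and hardly at all in mRNA-seq. Its level was 5.10 and 4.80 CPM in wt, 7.16 and 8.32 CPM in shDicer, and 10.6 and 7.92 CPM in shAgo2, with no overlap with wt in either line. MEST rose by 0.90 ± 0.17 on the log2 scale in shAgo2 (adjusted p = 0.00101). The shDicer value of 0.64 ± 0.17 missed the threshold of 0.005 (adjusted p = 0.0111). The call in shAgo2 was lost without either wt library (adjusted p = 0.00935 and 0.0133) and without the first shAgo2 library (adjusted p = 0.0173). Some 7.81% of the 31-base stretches of MEST transcripts also occur in transcripts of other genes, most often its pseudogene MESTP1, so a few reads could be divided between them. In mRNA-seq, MEST had between 0 and 10 counts in a library and was not tested.

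Of the 10 members, 4 had a start site in the RefSeq promoter table (GRCh38.p14), and MEST was the only one of these past a threshold. The 250 bases before a MEST start site (chr7:130491835-130492084, plus strand) are shown with the same stretch for FAM50B (chr6:3849123-3849372, plus strand), the imprinted gene listed at 0 in shAgo2 below, and for PPP1R9A (chr7:94907344-94907593, plus strand), the gene that rose beside PEG10. CpG dinucleotides, the sites that imprint methylation uses, are in capitals.
MEST: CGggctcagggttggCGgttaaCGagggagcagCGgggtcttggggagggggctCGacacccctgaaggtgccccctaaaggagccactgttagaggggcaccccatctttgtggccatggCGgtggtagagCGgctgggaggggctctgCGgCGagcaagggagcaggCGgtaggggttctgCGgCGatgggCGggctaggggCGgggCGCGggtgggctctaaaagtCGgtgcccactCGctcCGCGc
FAM50B: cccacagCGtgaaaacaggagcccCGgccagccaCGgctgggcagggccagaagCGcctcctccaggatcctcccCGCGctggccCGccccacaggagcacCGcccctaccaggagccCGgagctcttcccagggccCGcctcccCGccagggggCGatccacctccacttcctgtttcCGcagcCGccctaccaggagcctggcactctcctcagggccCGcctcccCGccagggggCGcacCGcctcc
PPP1R9A: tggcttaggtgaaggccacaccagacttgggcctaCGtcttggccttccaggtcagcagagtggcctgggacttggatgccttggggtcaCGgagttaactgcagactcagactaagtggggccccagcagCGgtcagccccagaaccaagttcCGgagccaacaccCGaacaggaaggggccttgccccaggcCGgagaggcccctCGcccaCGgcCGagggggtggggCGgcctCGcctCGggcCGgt
These stretches hold 20, 18 and 13 CpG, against a median of 11 over 34943 such stretches of all genes. MEST has 5 such stretches at its start sites in the table, with 9 to 20 CpG, and the one shown holds the most CpG of the 3 that overlap no exon. None of the 3 stretches shown holds TGCCGC on either strand, the hexamer that the imprint-protecting zinc finger protein ZFP57 recognises when methylated, but 1 of the 5 MEST stretches does, as do 12.7% of all stretches. The stretch that starts both HYMAI and PLAGL1 (chromosome 6, 144008260 to 144008509, minus strand) holds 32 CpG and the hexamer once on each strand. A match is a description of the letters and not a bound site.

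Neither MEG3 nor SNRPN passed a threshold on chromatin. MEG3, a maternally expressed long non-coding RNA, was 2.79 and 2.53 CPM in wt, 3.05 and 2.81 CPM in shDicer, 2.85 and 2.84 CPM in shAgo2, and 3.20 and 3.54 CPM in the libraries labelled DroshaKD. Its log2 fold changes against wt were 0.14 ± 0.19, 0.10 ± 0.19 and 0.34 ± 0.19, with the libraries of each group above both wt libraries (adjusted p = 0.624, 0.735 and 0.364). SNRPN, which encodes a spliceosomal protein and lies in the Prader-Willi region, was 1.30 and 1.71 CPM in wt, 1.68 and 1.48 CPM in shDicer, 1.62 and 1.86 CPM in shAgo2 and 1.31 CPM in both libraries labelled DroshaKD. Its groups overlapped in all 4 chromatin comparisons, with adjusted p between 0.564 and 0.85. SNRPN shares 38.7% of its 31-base stretches with other genes, most of them with SNURF of the same transcripts, and is uncertain for that reason. In mRNA-seq neither gene exceeded 4 counts in a library.

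CDKN1C and IGF2, a growth inhibitor and a growth factor of the same cluster on chromosome 11, were near the limit of what the depth shows. CDKN1C encodes the cyclin-dependent kinase inhibitor p57 and had 27 and 12 counts in wt, 5.9 and 20.3 in shDicer, 13 and 12 in shAgo2, and 11.6 and 12 in the libraries labelled DroshaKD. Its log2 fold changes were -0.79 ± 0.51, -0.87 ± 0.51 and -0.82 ± 0.51, and none passed (adjusted p = 0.251, 0.196 and 0.422). IGF2 had 7 and 12.4 counts in wt, 10 and 19 in shDicer, and 7 and 4 in shAgo2. It was higher in both shDicer libraries than in both shAgo2 libraries (log2 fold change 1.41 ± 0.52), which did not pass (adjusted p = 0.12). In mRNA-seq, IGF2 had 1, 0 and 0 counts in wt and 8.4, 3.1 and 5.3 in shDicer, too few for a test. Since 41.2% of the 31-base stretches of IGF2 occur in transcripts of other genes, these counts are uncertain as well.

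H19, DLK1 and PEG3 were not detected at a level that the depth can compare. H19, the maternally expressed non-coding RNA beside IGF2, had between 1 and 4 counts in the 8 chromatin libraries and between 0 and 3 in mRNA-seq. DLK1, a Notch-like ligand beside MEG3, had 1 count in 1 chromatin library and 0 in the other 13. PEG3, a zinc finger gene on chromosome 19, had 1 count in 1 mRNA-seq library and 0 in the other 13. A count of 0 allows up to 3 counts in a library, so expression below that was not detectable at this depth, and such limits cover counting error only. The low-count filter therefore left 2 members in mRNA-seq (PEG10 and SGCE) and 7 in chrRNA-seq, and a member that passed through 1 high group had to differ between groups.

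Levels between genes were compared as TPM, which corrects for transcript length. On chromatin in wt, SGCE led with 5.12 TPM, followed by MEST with 3.91, SNRPN with 0.531, MEG3 with 0.526, CDKN1C with 0.374 and PEG10 with 0.151 TPM. The ranges of SNRPN, MEG3 and CDKN1C overlapped from one to the next. In shDicer and shAgo2, PEG10 stood first with 17.5 and 21.7 TPM, above SGCE with 10.3 and 15.7 TPM and MEST with 7.41 and 9.79 TPM, and the ranges of these 3 did not overlap. In the libraries labelled DroshaKD, MEST (5.54 TPM) and SGCE (4.85 TPM) led and overlapped, and PEG10 was sixth with 0.112 TPM. In mRNA-seq, SGCE led in wt with 2.04 TPM, and the members from MEST down to DLK1 overlapped each with the next. In mRNA-seq shDicer, PEG10 was first with 19.8 TPM and SGCE second with 5.74 TPM, and each other member was under 0.14 TPM on average.

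The 9 members other than PEG10 were counted against all genes tested. They were chosen with earlier results of these data known, so these counts describe the list and are no independent evidence of a direction. In mRNA-seq shDicer, 0 of 9 were raised and 0 lowered by edgeR, with SGCE the only one tested. Raised at an unadjusted p under 0.05 was 1 and lowered were 0, and DESeq2 also called 0 in each direction. Of all genes tested, 15.6% were raised and 14.2% lowered. On chromatin in shDicer, 1 of the 6 tested was raised (SGCE, 16.7%) and 0 lowered, beside 11.0% raised and 10.5% lowered of all genes. In shAgo2, 2 of the 6 tested were raised (SGCE and MEST, 33.3%) and 0 lowered, beside 12.5% and 12.1% of all genes. Lowered at an unadjusted p under 0.05 were 0 in each of these comparisons, and DESeq2 called 0 lowered as well. The other 3 were too low to test. The 6 had a median of 0.27 (log2 fold change) in shDicer and 0.15 in shAgo2, where the median over all genes was 0.00718 and 0.00277.

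**Figure D3:**
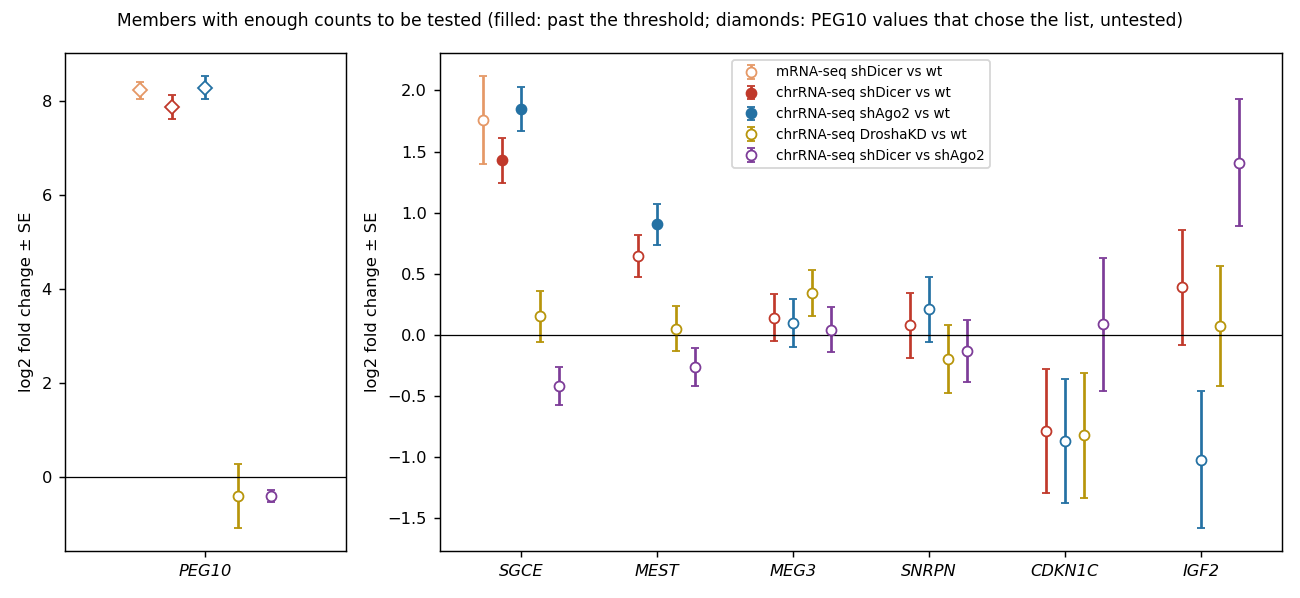
Log2 fold change with its standard error for the 7 members that could be tested, 1 colour for each comparison, with PEG10 on an axis of its own. Filled circles passed the threshold of their comparison, and diamonds mark the 3 PEG10 values that chose the list. SGCE at 1.43 and 1.85 and MEST at 0.90 are the filled points.

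In the libraries labelled DroshaKD, 0 of the 10 members were raised and 0 lowered by edgeR, with 0 in each direction at an unadjusted p under 0.05 and 0 by DESeq2. Of all genes, 1.19% were raised and 2.18% lowered. PEG10, whose DroshaKD values did not enter the choice of the list, was 0.457 and 0.327 CPM against 0.296 and 0.758 CPM in wt (log2 fold change -0.41 ± 0.68, adjusted p = 0.802). SGCE was 6.91 and 5.99 CPM (log2 fold change 0.15 ± 0.20, adjusted p = 0.748), and MEST was 4.97 and 5.28 CPM (0.05 ± 0.18, adjusted p = 0.919). The median over the 7 tested members was 0.05, and that over all genes was 0.00491. With 2 libraries a group, a change smaller than these errors was not detectable.

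A direct comparison of the 2 inducible lines asked whether the members differed between shDicer and shAgo2. By edgeR, 0 of the 9 members other than PEG10 were raised and 0 lowered in shDicer relative to shAgo2, beside 1.37% and 1.34% of all genes, and DESeq2 also called 0. At an unadjusted p under 0.05, 1 was higher (IGF2) and 1 lower (SGCE). PEG10 was 104 and 144 CPM in shDicer and 159 and 170 CPM in shAgo2, a log2 difference of -0.41 ± 0.13 that is given with no test, since the list was chosen from these libraries. SGCE differed by -0.42 ± 0.16 (adjusted p = 0.121) and MEST by -0.26 ± 0.15 (adjusted p = 0.349). In both genes of the PEG10 pair, each shDicer library lay below each shAgo2 library. Without the second shDicer library the PEG10 difference was -0.66.

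Around PEG10, 6 genes within 500 kb other than SGCE were tested on chromatin. PPP1R9A, a neuronal actin-binding gene that is imprinted in some tissues and lies 238 kb beyond PEG10, rose by 1.19 ± 0.11 in shDicer (adjusted p = 4.32e-06) and by 1.38 ± 0.11 in shAgo2 (adjusted p = 1.07e-06) on the log2 scale. It also rose in mRNA-seq by 1.77 ± 0.10 (adjusted p = 1.45e-07). Its levels on chromatin were 37.3 and 37.6 CPM in wt, 76.7 and 94.7 CPM in shDicer, and 96.8 and 98.5 CPM in shAgo2. CASD1, a sialic acid acetyltransferase gene that adjoins SGCE, did not pass, with 0.16 ± 0.12 in shDicer, 0.31 ± 0.12 in shAgo2 and 0.04 ± 0.11 in mRNA-seq. COL1A2, a collagen gene at -225 kb from PEG10, did not pass either (0.20 ± 0.14 and 0.34 ± 0.14). The antisense gene PPP1R9A-AS1 (0.45 ± 0.14 in shDicer and 0.47 ± 0.14 in shAgo2) and the processed pseudogenes HINT1P2 (1.27 ± 0.52 and 1.74 ± 0.49) and ENSG00000231153 (0.61 ± 0.54 and 1.27 ± 0.49) missed the threshold in both lines. Every shDicer and shAgo2 library of these 3 lay above both wt libraries. With so few libraries that separation is no test, and its share over all genes is not given here. The median over the 6 neighbours was 0.53 in shDicer and 0.87 in shAgo2, against 0.00718 and 0.00277 over all genes. It rests in part on the pseudogenes with wide errors. PPP1R9A was the 1 of 6 that passed in each line, beside 11.0% of all genes raised in shDicer and 12.5% in shAgo2.

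**Figure D4:**
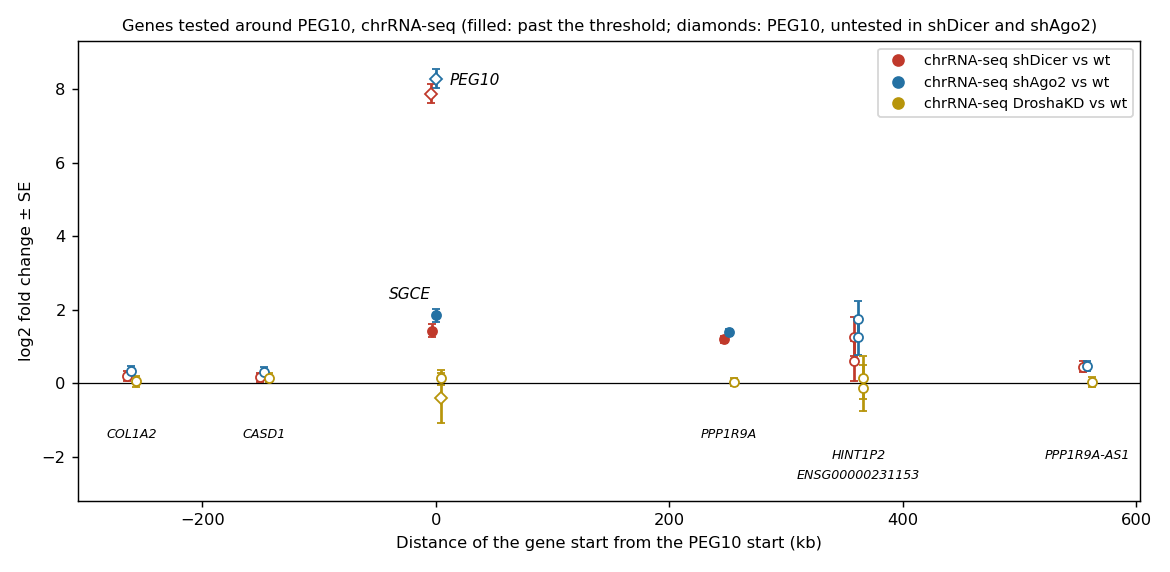
Log2 fold change on chromatin, with its standard error, of the genes tested within 500 kb of PEG10, by the distance of their start from the PEG10 start. Colours are shifted by 4 kb so that they can be told apart. PEG10 and SGCE at 0 kb and PPP1R9A near 250 kb are high in shDicer and shAgo2, the pseudogene HINT1P2 follows with wide errors at 1.27 and 1.74, and CASD1 and COL1A2 are at or below 0.34.

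The neighbours of other members differed from locus to locus. Within 500 kb of MEST, the antisense RNA MESTIT1 did not pass on chromatin (-0.02 ± 0.16 in shDicer and 0.04 ± 0.15 in shAgo2), and COPG2, a coatomer gene that overlaps MEST, rose in mRNA-seq by 0.73 ± 0.10 (adjusted p = 9.99e-05) and did not pass on chromatin. Of the 23 genes tested there on chromatin, 2 were raised in shDicer, and 4 were raised and 1 lowered in shAgo2, among them LINC-PINT at 0.37 and ZC3HC1 at -0.48. Of the 17 genes tested near CDKN1C, 9 were lowered in shDicer and 8 in shAgo2. Among them NAP1L4, a histone chaperone gene 58.7 kb from CDKN1C, was at -1.11 and -1.10. KCNQ1, PHLDA2 and SLC22A18 of the same imprinted cluster did not pass. Near H19 and IGF2, MRPL23 and CD81 were lower in both lines (-0.55 and -0.87, and -0.65 and -0.94). Of the 37 genes near PEG3, 6 were raised in shDicer and 14 in shAgo2, zinc finger genes such as ZFP28 (1.15 and 1.80) and ZNF470 (0.42 and 0.54) among them. SNHG14 and PWRN1 beside SNRPN and MEG8 beside MEG3 did not pass. Over all 10 loci, 9 of 120 genes were raised and 14 lowered in shDicer (19.2% together), beside 11.0% and 10.5% of all genes. In shAgo2, 19 were raised and 15 lowered (28.3% together), beside 12.5% and 12.1%. In DroshaKD, 1 was raised and 1 lowered (1.67% together), beside 1.19% and 2.18%. Windows of neighbouring members share genes.

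Of 52 other imprinted genes, 47 were in the files, and 21 were tested in mRNA-seq and 37 in chrRNA-seq. In mRNA-seq shDicer 3 of 21 were raised and 5 lowered, beside 15.6% and 14.2% of all genes. On chromatin, 5 of 37 were raised and 7 lowered in shDicer, beside 11.0% and 10.5% of all genes, and 4 were raised and 7 lowered in shAgo2, beside 12.5% and 12.1%. The median log2 fold change over the tested genes was -0.09, -0.13 and -0.20, against 0.01, 0.00718 and 0.00277 over all genes. The list was drawn up with earlier results of these data known, so these counts describe it and are no independent evidence of a direction.

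PLAGL1 and HYMAI fell in mRNA-seq shDicer and in both lines on chromatin. PLAGL1, a zinc finger growth regulator read from the paternal copy, and the non-coding HYMAI lie on chromosome 6 and share a start site. On chromatin, PLAGL1 was 28.1 and 28.6 CPM in wt, 1.21 and 1.43 CPM in shDicer, 0.688 and 0.655 CPM in shAgo2, and 30.7 and 26.5 CPM in the libraries labelled DroshaKD. HYMAI was 35.7 and 38.9 CPM in wt, 0.579 and 0.901 CPM in shDicer, and 0.295 and 0.382 CPM in shAgo2. The fall was -4.42 ± 0.15 and -5.38 ± 0.17 for PLAGL1 and -5.64 ± 0.17 and -6.76 ± 0.19 for HYMAI on the log2 scale (adjusted p = 1.69e-09 and 1.06e-09 for PLAGL1, 8.99e-10 and 6.15e-10 for HYMAI). In mRNA-seq, PLAGL1 had 112.3, 114.1 and 97 counts in wt and 0, 2 and 0.4 in shDicer. HYMAI had 37, 55 and 21 counts in wt and 0 in all 3 shDicer libraries, which makes it at least 15.7-fold lower when 0 is taken as 3 counts per library. FAM50B, a retrocopy read from the paternal copy, had 57.3 and 29.4 counts on chromatin in wt, 5 and 0 in shDicer and 0 in both shAgo2 libraries, at least 16.7-fold lower in shAgo2.

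MKRN3, ZNF331 and PPP1R9A rose in all 3 comparisons. MKRN3, a ubiquitin ligase gene of the Prader-Willi region that restrains puberty, was 5.34 and 6.32 CPM on chromatin in wt, 19.3 and 19.4 CPM in shDicer and 22.3 and 21.8 CPM in shAgo2 (log2 fold changes 1.73 ± 0.12 and 1.92 ± 0.12). ZNF331, a zinc finger gene on chromosome 19, rose by 1.40 ± 0.09 and 1.20 ± 0.09 there, and in mRNA-seq from 0.648, 0.800 and 0.717 CPM to 20.7, 20.2 and 25.5 CPM (4.93 ± 0.20, adjusted p = 1.82e-08). Smaller falls in both lines on chromatin were seen in KCNQ1OT1, the antisense RNA of the CDKN1C cluster (-0.56 and -0.64), and GNAS, a G protein subunit gene (-0.62 and -0.76). MCTS2 was at -0.72 and -0.93, but 99.6% of its 31-base stretches occur in other genes, chiefly HM13 in whose intron it lies, so its value is uncertain. In the libraries labelled DroshaKD, only GRB10, an adaptor of insulin signalling, passed among the 37 (-0.33 ± 0.07, adjusted p = 0.0337).

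**Figure D5:**
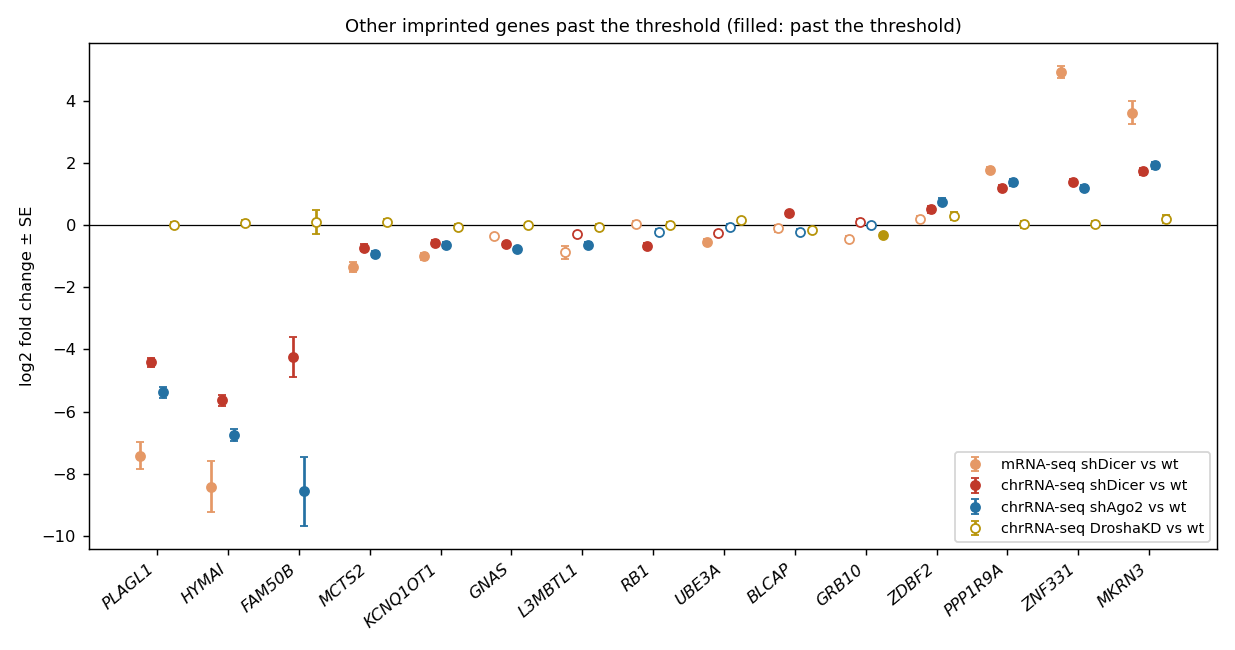
Log2 fold change with its standard error of the other imprinted genes that passed in at least 1 comparison with wt, filled where they passed. Fitted values of HYMAI in mRNA-seq and FAM50B in shAgo2 come from groups at 0 counts and are no bound. PLAGL1, HYMAI and FAM50B lie below -4 in shDicer and shAgo2, and all DroshaKD points lie near 0.

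3 further lists place the members among genes of related function. Of 11 genes of the retrotransposon-derived Gag family to which PEG10 belongs, 8 were tested on chromatin. RTL8C and RTL10 were lower in shDicer (-0.54 and -0.53) and shAgo2 (-0.88 and -0.55), and RTL5 was higher in shDicer (0.61). Of all genes, 11.0% were raised and 10.5% lowered in shDicer, and 12.1% lowered in shAgo2. RTL9 was at 1.12 ± 0.44 in shDicer, with both libraries above wt, and did not pass (adjusted p = 0.0645). RTL8C was also lower in the libraries labelled DroshaKD (-0.56 ± 0.10, adjusted p = 0.0135), the 1 of 8 lowered there, beside 2.18% of all genes. In mRNA-seq, 1 of 7 tested was raised (RTL6, 0.66 ± 0.12, adjusted p = 0.000811) and 0 lowered, beside 15.6% and 14.2% of all genes. RTL6 did not pass on chromatin. Of 9 genes of the dystrophin-associated complex that holds SGCE, 7 were tested on chromatin. In each line 1 was raised and 2 were lowered, beside 11.0% and 10.5% of all genes in shDicer and 12.5% and 12.1% in shAgo2. In DroshaKD 1 was raised and 1 lowered, beside 1.19% and 2.18%. DMD, which encodes dystrophin, rose in both lines (1.56 and 1.27) and in mRNA-seq (1.63). It also passed in the libraries labelled DroshaKD (0.37 ± 0.09, adjusted p = 0.0494). SSPN, the sarcospan gene, fell in both lines (-2.15 and -1.91) and in mRNA-seq (-4.15). DAG1, the dystroglycan gene, was lower on chromatin in all 3 groups (-0.68, -0.89 and -0.92 in DroshaKD). In mRNA-seq it was at 1.53 ± 0.42, with all 3 shDicer libraries above all 3 wt libraries, and did not pass (adjusted p = 0.01). Of 13 genes of the insulin-like growth factor axis around IGF2, 11 were tested on chromatin, and 5 were raised and 1 lowered in each line, beside 11.0% and 10.5% of all genes in shDicer and 12.5% and 12.1% in shAgo2. IGF1, the sister growth factor of IGF2, rose by 2.76 ± 0.29 and 3.42 ± 0.27, from 8.2 and 11 counts in wt to between 73.3 and 122.4. The binding proteins IGFBP5 (3.92 and 2.40) and IGFBP4 (-2.92 and -3.21) moved in opposite directions. The RNA-binding protein gene IGF2BP2 rose in both lines (1.13 and 1.14) and in the libraries labelled DroshaKD (0.38 ± 0.08, adjusted p = 0.0267). In DroshaKD 1 of the 11 was raised and 0 were lowered, beside 1.19% and 2.18% of all genes.

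The genes most like PEG10 over the 8 chromatin libraries were ROBO2, MDC1, RASAL2-AS1, FLG and DPY19L2P1, with Pearson's r of log2 CPM between 0.998 and 0.9986. FLG, the filaggrin gene, had a larger fitted log2 fold change than PEG10 in both lines (9.55 in shDicer). They were the highest of 15840 genes compared, all with log2 CPM averaging 3 or more. The points fall into 2 sets, shDicer and shAgo2 on one side and wt and DroshaKD on the other, and 1133 genes exceeded 0.95, so the value is a description of these libraries. SGCE was at 0.95 and MEST at 0.93, SNRPN at 0.69, and MEG3, IGF2 and CDKN1C were between -0.38 and -0.23.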

How the data were processed

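The authors deposited kallisto abundance tables with estimated counts and TPM per transcript for 6 mRNA-seq and 8 chrRNA-seq libraries. Intronic reads were not part of the reference, so chromatin RNA is read from annotated transcripts. The labels call the mRNA-seq RNA polyadenylated, whereas the study's methods describe ribosomal RNA depletion of stranded total RNA. Transcripts were matched to symbols without their version and estimated counts were summed per gene and rounded. Between 93.4 and 94.8% of counts were matched. 6 small RNA libraries were not analysed here.

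Genes that passed edgeR's filterByExpr were fitted with TMM factors and edgeR's quasi-likelihood test (edgeR 4.0.16, R 4.3.3) with Benjamini-Hochberg adjustment, mRNA-seq and chrRNA-seq apart, with all 8 chrRNA-seq libraries in 1 fit. DESeq2 1.42.0 was an alternative, beside library-size scaling, no filter, length-scaled TPM counts, other thresholds, merged overlapping genes, fewer groups in the fit, a replicate block, and leaving out each library. The fits were tested on simulated data. CPM values are edgeR's, on TMM-scaled library sizes.

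The members and gene lists were chosen with earlier results of these data known. Genes named were all 10 members, up to 8 genes per list and up to 6 per locus, with further genes of the lists, PPP1R9A-AS1 and the markers named after their values were seen. Replicates of a group differed by more than sampling noise (chi-square per degree of freedom 2.28 to 22), and none were merged. Sequences are RefSeq's, build GRCh38.p14. A motif was searched on both strands. One further list of cell type markers is not reported here.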

Additional observations from a re-analysis of the deposited data

Results flagged for a closer look

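Of the members and the lists of imprinted and functionally related genes, 3 genes differed between shDicer and shAgo2 on chromatin by a test of the difference itself (edgeR's quasi-likelihood test, adjusted over all genes). All 3 were higher in shDicer, 1 of the 37 other imprinted genes tested and 2 of the 11 of the insulin-like growth factor axis. Of all genes, 1.37% were higher and 1.34% lower in shDicer. The HEK293 markers KRT18 (0.79) and NEFM (1.42) and the targeted genes DICER1 (-0.95) and AGO2 (0.53) also passed this test. Against wt, DICER1 was raised in shAgo2 (0.78) and did not pass in shDicer (-0.18). AGO2 was lowered in shAgo2 (-0.62) and did not pass in shDicer (-0.09). BLCAP, an imprinted gene of chromosome 20, was 0.59 higher on the log2 scale in shDicer than in shAgo2 (adjusted p = 0.000623), with 84.6 and 77.9 CPM against 53.5 and 54.3 CPM. Against wt it was at 0.38 in shDicer and at -0.21 in shAgo2, of which the first passed. IGFBP5, which binds insulin-like growth factors, was 1.52 higher in shDicer (adjusted p = 8.51e-05), with 194 and 269 CPM against 87.6 and 73.5 CPM, and was raised against wt in both lines. IGFBP2, of the same family, was 0.55 higher in shDicer (adjusted p = 0.00228), with 36.1 and 37.3 CPM against 25.6 and 24.6 CPM, and passed against wt in neither line on chromatin.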

How the results depend on the processing

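Of the log2 fold changes of single members under the alternatives, 330 counted as the same, 11 reversed, 9 moved, 7 newly passed and 3 no longer passed. The same means an unchanged direction and side of the threshold, except for PEG10 in the 3 comparisons that chose the list. There no threshold applied, and PEG10 counted as the same or as moved by its distance from the main value relative to the standard error. All 9 that moved are such PEG10 values. All that reversed had not passed. With 1 library left out, IGF2 ranged from -0.15 to 0.87 in shDicer and from -0.30 (with another at -0.03) to 0.55 in DroshaKD. SNRPN ranged from -0.11 (with another at -0.01) to 0.28 in shDicer and from -0.38 to 0.0059 in DroshaKD. In DroshaKD, PEG10 ranged from -0.94 to 0.39 and SGCE from -0.07 to 0.42. Between shDicer and shAgo2, MEG3 ranged from -0.02 to 0.10 and CDKN1C from -1.02 to 0.71. SGCE in DroshaKD was at -0.003 with length-scaled TPM counts. PEG10 was at 6.99 in mRNA-seq, 6.93 in shDicer and 7.20 in shAgo2 with those counts. The cause was not tested.

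Raised members in mRNA-seq numbered 1 in place of 0 without the low-count filter and at an adjusted p under 0.05, and 0 to 1 with a library left out. In shDicer on chromatin they numbered 2 in place of 1 with length-scaled TPM counts and at 0.05, and 1 with any library left out. In shAgo2 they numbered 1 to 2 with a library left out. Lowered members between shDicer and shAgo2 numbered 0 to 1 with a library left out, the 1 being PEG10, whose values in these libraries chose the list. Other imprinted genes lowered in mRNA-seq numbered 8 at 0.05 in place of 5. Those raised in shDicer numbered 3 in place of 5 with length-scaled TPM counts, and 3 to 4 with a library left out. The 1 lowered in DroshaKD was lost (0) with library-size scaling, length-scaled TPM counts, only the 2 groups in the fit and each library left out. Between shDicer and shAgo2, those raised numbered 2 in place of 1 without the filter, 4 at 0.05 and 0 to 1 with a library left out, and those lowered 1 in place of 0 at 0.05. Within 1000 kb of members, 0.877% of genes passed in that comparison, in place of 0 within 500 kb.

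Whether replicate numbers pair the samples was not settled, and the main fits did not pair them. Same-numbered mRNA-seq libraries correlated weakly, at 0.0455 to 0.0812, each best with its own number. Differently numbered ones were at -0.0931 to 0.0151. With the replicate block, raised members in mRNA-seq numbered 1 in place of 0, other imprinted genes raised in shDicer 3 in place of 5, and those lowered in DroshaKD 0 in place of 1.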

Other observations

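Genes that keep imprints in place, from a list of 12, were tested as well, 11 of them on chromatin. TRIM28, the corepressor recruited by imprint-protecting zinc finger proteins, was lower in shDicer (-1.26 ± 0.10 on the log2 scale, adjusted p = 2.53e-06), in shAgo2 (-1.45 ± 0.10, adjusted p = 7.07e-07) and in the libraries labelled DroshaKD (-0.93 ± 0.10, adjusted p = 0.0018). In mRNA-seq it was at -0.44 ± 0.12 and did not pass (adjusted p = 0.0114). CTCF, the insulator protein of the H19 and IGF2 locus, was lower in mRNA-seq (-0.90 ± 0.10) and in all 3 chromatin groups (-0.89, -0.84 and -0.48). UHRF1, which brings the maintenance methyltransferase to DNA, was at -0.35, -0.52 and -0.46 and passed in each chromatin group, but was at 0.43 ± 0.08 in mRNA-seq, where the shDicer libraries lay above wt and the threshold was missed (adjusted p = 0.00117), while DNMT1 itself passed only in DroshaKD (-0.36 ± 0.08, adjusted p = 0.0245). SMCHD1, a chromatin protein that silences some imprinted clusters, rose in mRNA-seq (0.58) and on chromatin in shDicer (0.67) and shAgo2 (0.48). In all, 1 of the 11 was raised and 4 were lowered in each of shDicer and shAgo2, and 4 were lowered in DroshaKD. Of all genes, 11.0% were raised and 10.5% lowered in shDicer, 12.5% and 12.1% in shAgo2, and 1.19% and 2.18% in DroshaKD. The list's median was -0.28, -0.29 and -0.11. No DNA methylation was measured in these libraries.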
